A study of Rattus norvegicus with 8 samples.

Results

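Hspa5, Hsp90b1, Ddit3, Atf4, Xbp1, Trib3, Pdia4, Dnajb9, Herpud1 and Asns are 10 rat genes of the unfolded protein response, and their mRNA was measured on 8 arrays of lung and blood from a rat model of tobacco carcinogenesis. The members were chosen by name, and each was taken through the RefSeq transcript that the array assigns to its probe. These 10 were among 13903 genes that could be named in this way. Each had 1 probe printed in 1 spot, and each probe was well above background on all 8 arrays and saturated on none.

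The unfolded protein response is how a cell answers an excess of unfolded protein in the endoplasmic reticulum (ER), the compartment where secreted and membrane proteins are folded. The sensors IRE1, PERK and ATF6 sit in the ER membrane. IRE1 splices the mRNA of Xbp1 into the form that encodes an active transcription factor, PERK lowers protein synthesis while favouring the translation of Atf4, and ATF6 is cut to release a transcription factor. Their targets are ER chaperones, degradation factors and amino acid enzymes, and lasting stress brings up the pro-apoptotic factor CHOP, encoded by Ddit3. Cells that secrete much protein, such as the type 2 alveolar cells of the lung and plasma cells, are known to lean on this pathway.

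The rats were male F344 animals, and the tissues were collected in week 95. The carcinogen was the tobacco-specific nitrosamine NNK (4-(methylnitrosamino)-1-(3-pyridyl)-1-butanone). There were 3 lung tumors, which the methods describe as moderately differentiated adenocarcinoma, and 3 matched normal lung tissues, so the normal lung also came from NNK-treated rats and no lung of an untreated rat was measured here. The blood samples were clots from whole blood, 1 of an untreated control rat and 1 of an NNK-treated rat. The free-text description of the NNK blood sample is that of a tumor, but its title calls it a clot and its source and tissue labels call it blood. Of 7 type 2 alveolar markers, 4 were well above background on both blood arrays, whereas the surfactant gene Sftpc was so on neither. The sample was used as blood.

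Signals are given as log2 of the background-subtracted intensity, quantile-normalized within the 6 lung arrays or within the 2 blood arrays. Slide 1 held the 3 normal lung arrays with tumor array 1, slide 2 the remaining tumor arrays, and slide 3, scanned on another day, the blood. The 3 normal lung arrays differed from each other by less than the noise between the spots of a probe, with ratios of observed to expected squared difference of 0.478 to 0.740, and so did tumor arrays 2 and 3 (0.487). Tumor array 1 differed from tumor arrays 2 and 3 by ratios of 4.49 and 5.05. The near-identical arrays were therefore counted as 1 sample in each mean ± SD, which leaves 1 normal lung and 2 tumor samples. The tests below count the 6 arrays separately unless stated, so their p-values measure the spread between arrays, which may be technical. The 75th percentile of the intensity was 1191 to 1329 in lung, and in blood 95.4 for the control rat and 205.8 for the NNK rat.

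The promoters of these genes are shown first because known stress elements lie in some of them. Each window is 300 bases of RefSeq sequence in the build GRCr8 that ends 50 bases after the transcription start, printed 5′ to 3′ on the strand of the gene. The ER stress element (ERSE, spelled CCAAT, any 9 bases, CCACG), to which ATF6 and XBP1 bind together with the factor NF-Y, matched in 3 of the 10 members, against 22 of 33469 rat promoters of the same length (0.0657%). It lay 43 to 25 bases before the start in Hspa5, 65 to 47 bases before it in Xbp1, and in Hsp90b1 both at 176 to 158 bases and, on the opposite strand, at 72 to 54 bases. ERSE-II (ATTGG, any base, CCACG), which serves the same factors, matched in Herpud1, 124 to 114 bases before the start, against 17 of all promoters (0.0508%). The C/EBP-ATF element (TGATGNAA), bound by ATF4 and CHOP with C/EBP partners, matched on the opposite strand in Herpud1 and Trib3, against 3.98% of all promoters. The unfolded protein response element (UPRE, TGACGTGG) matched in none of the 10, against 0.595% of all promoters. Both strands were searched, the matches are in capitals, and a match is a description of the letters in this window, not a shown binding site.
Hspa5 (chr3:38452766-38453065, plus strand): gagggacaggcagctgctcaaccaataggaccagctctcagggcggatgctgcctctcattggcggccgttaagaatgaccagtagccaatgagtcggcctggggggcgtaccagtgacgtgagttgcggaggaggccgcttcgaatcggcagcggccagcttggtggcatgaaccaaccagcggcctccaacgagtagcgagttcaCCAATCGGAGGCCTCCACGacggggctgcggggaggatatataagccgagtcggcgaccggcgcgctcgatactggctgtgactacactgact
Hsp90b1 (chr7:23012244-23012543, minus strand): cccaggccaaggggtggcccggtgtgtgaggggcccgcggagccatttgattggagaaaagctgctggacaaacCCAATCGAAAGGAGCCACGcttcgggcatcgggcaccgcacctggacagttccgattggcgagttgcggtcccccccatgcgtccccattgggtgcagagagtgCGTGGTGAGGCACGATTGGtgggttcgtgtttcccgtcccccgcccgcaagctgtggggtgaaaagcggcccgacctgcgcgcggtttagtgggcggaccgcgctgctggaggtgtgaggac
Xbp1 (chr14:84604373-84604672, plus strand): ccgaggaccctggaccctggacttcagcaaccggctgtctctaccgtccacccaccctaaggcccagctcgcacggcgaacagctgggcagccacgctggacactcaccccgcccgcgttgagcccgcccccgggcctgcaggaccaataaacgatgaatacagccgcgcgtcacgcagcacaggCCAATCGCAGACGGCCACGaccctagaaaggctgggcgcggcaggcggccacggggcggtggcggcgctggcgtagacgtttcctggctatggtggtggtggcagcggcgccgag
Herpud1 (chr19:10614658-10614957, minus strand): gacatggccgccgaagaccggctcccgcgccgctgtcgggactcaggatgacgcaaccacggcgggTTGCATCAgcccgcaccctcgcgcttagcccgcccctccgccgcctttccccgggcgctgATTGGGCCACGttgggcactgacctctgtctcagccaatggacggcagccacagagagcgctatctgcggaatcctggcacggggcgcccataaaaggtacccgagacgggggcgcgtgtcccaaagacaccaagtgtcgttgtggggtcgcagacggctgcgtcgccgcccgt
Trib3 (chr3:161275484-161275783, minus strand): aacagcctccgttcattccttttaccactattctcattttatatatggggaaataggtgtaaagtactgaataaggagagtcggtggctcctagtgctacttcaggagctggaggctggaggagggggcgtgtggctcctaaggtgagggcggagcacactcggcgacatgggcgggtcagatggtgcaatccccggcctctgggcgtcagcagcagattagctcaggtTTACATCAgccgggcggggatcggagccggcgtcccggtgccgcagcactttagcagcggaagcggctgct

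The windows of the other members held no match to these letters. They lie at chr7:65001445-65001744 for Ddit3, chr7:113684431-113684730 for Atf4, chr4:78153142-78153441 for Pdia4, chr6:67002002-67002301 for Dnajb9 and chr4:36769366-36769665 for Asns.

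The first comparison asked which of these genes differed between lung tumor and matched normal lung. With the arrays counted separately, Xbp1 rose 1.89-fold and Dnajb9 1.15-fold in the tumors, while Ddit3 fell to 0.508 and Herpud1 to 0.731 of its normal signal. The main chaperones Hspa5 and Hsp90b1 differed by less than the spread between arrays. None of the 10 reached a 2-fold difference with an adjusted p of at most 0.05 in limma, whereas 29.0% of the 12471 probes tested did (27.9% of 15803 with outlier-marked spots kept), and limma's unadjusted p under 0.05 was reached by 4 members, each less than 2-fold. The methods' t-test also placed 0 members past the 2-fold rule. By the adjusted p alone 4 members passed, 2 higher and 2 lower, against 65.1% of all probes (33.7% higher and 31.4% lower), or 66.1% with marked spots kept (34.5% higher and 31.6% lower). The median of the members' absolute log2 fold changes was 0.20, against 0.61 over all probes tested. In bulk tissue, fewer cells of a type and less RNA per cell cannot be told apart.

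Hspa5 encodes BiP, the Hsp70 chaperone of the ER that also holds the stress sensors inactive. Its log2 signal was 16.75, 16.92 and 16.77 on normal lung arrays 1 to 3 and 16.90, 16.85 and 16.84 on tumor arrays 1 to 3. The tumor values lay inside the normal range, and the log2 fold change was 0.05 with a 95% confidence interval from -0.12 to 0.22 (limma, adjusted p = 0.515). Both bounds lie well inside 2-fold.

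Hsp90b1 encodes GRP94, the Hsp90 chaperone of the ER. Its log2 signal was 16.69, 16.76 and 16.76 in normal lung and 16.75, 16.72 and 16.70 in tumor. The groups overlapped, with a log2 fold change of -0.01 (SE 0.051, limma, adjusted p = 0.885).

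Pdia4 encodes a disulfide isomerase, an enzyme that forms and rearranges disulfide bonds in new proteins. Its log2 signal was 14.49, 14.66 and 14.57 in normal lung and 14.61, 15.29 and 15.36 in tumor. Tumor array 1 lay among the normal arrays while tumor arrays 2 and 3 were above them, and these also lay on the other slide, so tumor sample and slide cannot be told apart. The log2 fold change was 0.51 (SE 0.21, limma, adjusted p = 0.0815), and it was 0.75 without tumor replicate 1 (adjusted p = 0.000585). Feature Extraction had marked the Pdia4 spot as an outlier on normal lung array 3 and on the 3 tumor arrays, so its value comes from the fit with such spots kept.

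Dnajb9 encodes ERdj4, a BiP co-chaperone and a known target of XBP1. Its log2 signal was 15.33, 15.26 and 15.31 in normal lung and 15.50, 15.45 and 15.57 in tumor. The groups did not overlap, and the log2 fold change was 0.21 (SE 0.056, limma, adjusted p = 0.0226). With the replicate number of the matched tissues as a block the adjusted p was 0.062, and it was between 0.0511 and 0.0839 without tumor replicate 3 or without any of the normal replicates. The slide block gave 0.0669, and after the 75th percentile shift the log2 fold change was 0.11 (adjusted p = 0.205).

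Herpud1 encodes an ER membrane protein of the degradation machinery. Normal lung arrays 1 to 3 read 15.94, 15.96 and 15.87 in log2 signal, and tumor arrays 1 to 3 read 15.43, 15.29 and 15.52, the value of 15.29 on tumor array 2 being from a spot marked as an outlier. Every tumor array was below every normal array. The log2 fold change without the marked spot was -0.45 (SE 0.070, limma, adjusted p = 0.00502). It was -0.43 with the replicate block (adjusted p = 0.0582) and -0.43 in the paired form of the methods' t-test (adjusted p = 0.177), neither of which passed.

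**Figure D1:**
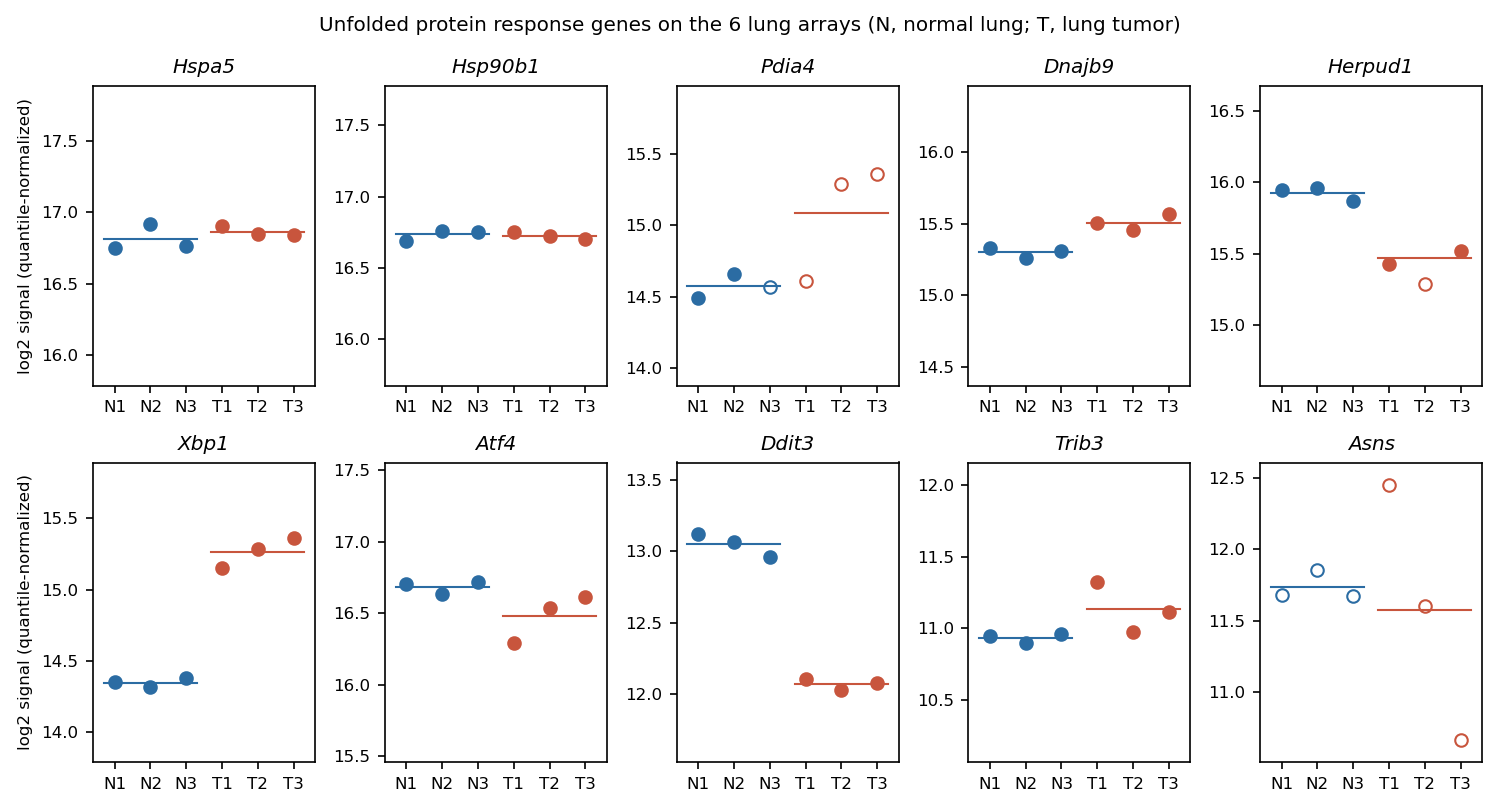
Each panel plots the log2 quantile-normalized signal of 1 gene (vertical axis, all panels spanning the same number of log2 units) on normal lung arrays N1 to N3 and tumor arrays T1 to T3, with open circles for outlier-marked spots and lines for the group means used in the fit. Ddit3 and Herpud1 lay lower and Xbp1 and Dnajb9 higher on every tumor array, whereas Hspa5 and Hsp90b1 overlapped between the groups.

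Xbp1 encodes the transcription factor that IRE1 activates by splicing. On the log2 scale the normal arrays were at 14.35, 14.32 and 14.38 and the tumor arrays at 15.15, 15.29 and 15.36, a log2 fold change of 0.92 (SE 0.072, limma, adjusted p = 0.000190). The lowest tumor array was well clear of the highest normal array, and counted as samples the tumor mean was 15.24 ± 0.12 (SD, n = 2) against 14.35 in 1 normal lung sample. The value just missed 2-fold and passed it, at 1.06, when all 8 arrays were quantile-normalized together. The probe's place in the mRNA is not given in the sources used here, so its signal was read as total Xbp1 mRNA and says nothing of the spliced share.

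Ddit3, which encodes CHOP, went the other way. Normal lung arrays 1 to 3 read 13.12, 13.06 and 12.96 in log2 signal, and tumor arrays 1 to 3 read 12.11, 12.03 and 12.08, so the groups were far apart and each group was tight. The log2 fold change was -0.98 (95% confidence interval -1.14 to -0.82, limma, adjusted p = 9.26e-05), just short of 2-fold. It was beyond 2-fold after a 75th percentile shift (-1.13) and without normal replicate 3 (-1.01). Counted as samples, the tumor mean was 12.08 ± 0.040 (SD, n = 2) against 13.05 in 1 normal lung sample.

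Atf4 encodes the factor whose translation rises when PERK is active, a step that mRNA arrays do not see. On the log2 scale the normal arrays were at 16.71, 16.64 and 16.72 and the tumor arrays at 16.29, 16.54 and 16.62. The tumor values were all below the normal ones, with tumor array 1 lowest, but the log2 fold change of -0.20 (SE 0.097) did not pass (limma, adjusted p = 0.116). With the slide as a block, where tumor array 1 alone is compared with the normal arrays beside it, the log2 fold change was -0.39 (adjusted p = 0.00769).

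Trib3 encodes a pseudokinase that ATF4 and CHOP induce. Normal lung arrays 1 to 3 read 10.95, 10.89 and 10.96 in log2 signal, and tumor arrays 1 to 3 read 11.33, 10.97 and 11.11. Tumor array 2 was barely above the normal arrays, and the log2 fold change of 0.20 (SE 0.10) did not pass (limma, adjusted p = 0.130). With the slide as a block it was 0.39 (adjusted p = 0.0127).

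Asns encodes asparagine synthetase, an amino acid enzyme under ATF4 control. On the log2 scale the normal arrays were at 11.68, 11.85 and 11.68 and the tumor arrays at 12.45, 11.60 and 10.67, with all 6 spots marked as outliers. The tumors straddled normal lung, 1 above, 1 just below and 1 far below. The log2 fold change was -0.16 (SE 0.45, limma, adjusted p = 0.759), and its sign turned with the settings, so no direction can be given.

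The 4 calls rest on counting the arrays separately. With the near-identical arrays counted as 1 sample, which lends the spread of the tumors to the single normal sample, the log2 fold changes were hardly moved but none passed, with limma adjusted p-values of 0.0938 for Xbp1, 0.0736 for Ddit3, 0.218 for Herpud1 and 0.494 for Dnajb9. The groups did not overlap in 6 of the 10 members, 3 higher and 3 lower, against 73.0% of the 15803 probes that passed the filter (38.3% higher and 34.7% lower).

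**Figure D2:**
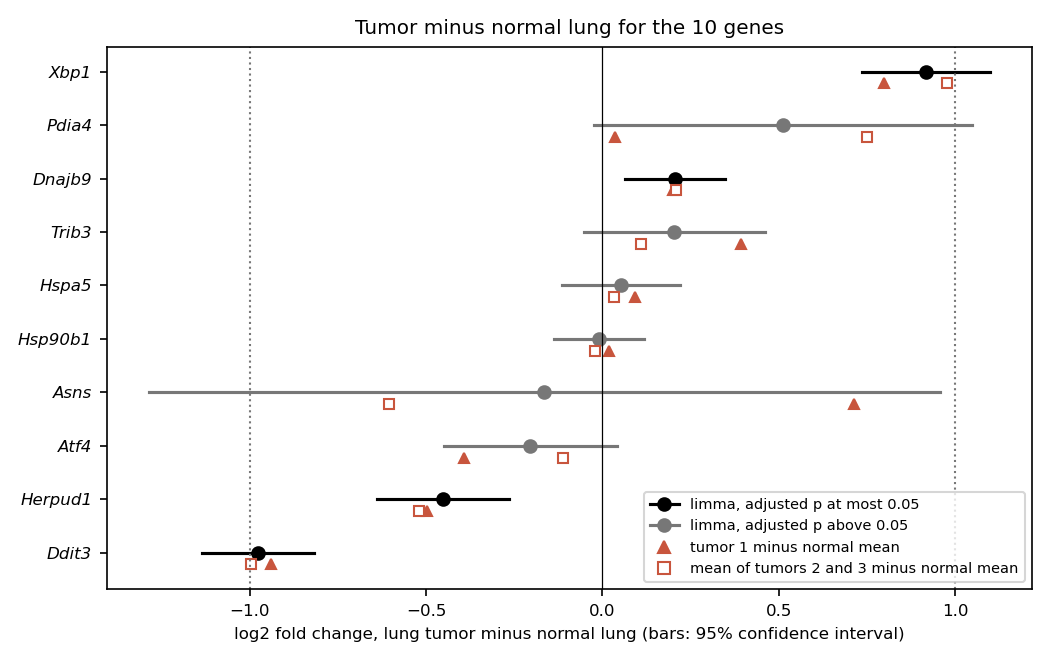
The horizontal axis is the log2 fold change of lung tumor over normal lung for each gene, with the limma estimate and its 95% confidence interval (black where the adjusted p was at most 0.05), the difference of tumor 1 (triangles) and of the mean of tumors 2 and 3 with marked spots kept (squares) from the normal mean, and dotted lines at 2-fold. Xbp1 and Ddit3 lie near the 2-fold lines on opposite sides, and tumor 1 and tumors 2 and 3 fall apart most for Asns and Pdia4.

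The rest of the pathway was then examined in 110 other genes, grouped by role. Of these 90 had a probe and 84 were tested, 24 of them in the fit with outlier-marked spots kept. Among the pathway genes named below, Eif2ak3, Sdf2l1, Dnajc3, P4hb, Ssr4, Nupr1, Ddit4 and Tmbim6 came from that fit. Of the 84 tested, 11 rose and 2 fell by 2-fold or more with an adjusted p of at most 0.05 (limma), or 15.5%. The share over all probes was 29.0%, or 27.9% with marked spots kept. By the adjusted p alone 36 were higher and 19 lower, against 33.7% and 31.4% of all probes. Their median log2 fold change was 0.14, against 0.07 over all probes. With the near-identical arrays counted as 1 sample, 5 were higher and 1 lower.

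Among the stress sensors, Atf6 rose by a log2 fold change of 1.24 (adjusted p = 0.000807, limma), which was just under 2-fold with normexp. Eif2ak3, which encodes PERK, was slightly lower at -0.18 (adjusted p = 0.0433), a call that 11 of 20 alternatives did not keep. Atf6b, the close relative of Atf6, was well above background on only 2 of 3 arrays of each group and was at -0.94 with a wide error (SE 0.59, adjusted p = 0.208), and Ern1, which encodes IRE1, has no probe named here. Of the other kinases that phosphorylate the translation factor eIF2, Eif2ak1, the heme-regulated kinase, rose by 1.80 (adjusted p = 0.000268).

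Of 9 ER chaperones and cofactors tested, 5 were higher and 2 lower by the adjusted p, against 33.7% and 31.4% of all probes. Sdf2l1, a stress-inducible partner of ERdj co-chaperones, rose by 1.34 (adjusted p = 0.000322), and Calr, the lectin chaperone calreticulin, by 1.28 (adjusted p = 0.00454). Dnajc3, the BiP co-chaperone p58IPK, rose by 0.58 (adjusted p = 0.00116), but was at 0.14 with normexp background correction (adjusted p = 0.205). Hyou1, the large ER chaperone that exchanges nucleotide on BiP, was at 0.06 (adjusted p = 0.454), and its second probe gave 0.09 (adjusted p = 0.439). Of 5 disulfide isomerases and oxidases, P4hb, the archetypal isomerase, rose by 1.07 (adjusted p = 0.00721), and 2 others were lower. P4hb was at 0.58 with the slide block and 0.89 after the 75th percentile shift, both under 2-fold, and missed in the paired form of the methods' t-test (adjusted p = 0.0972).

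Of 13 genes of ER-associated degradation, 6 were higher and 2 lower by the adjusted p, against 33.7% and 31.4% of all probes. Derl3, a derlin of the channel through which misfolded proteins leave the ER, rose by 1.67 (adjusted p = 2.81e-05), while Edem1, which marks such proteins, has no probe named here. Translocation and signal peptide processing had 8 of 10 tested genes higher and none lower by the adjusted p. The shares over all probes were 33.7% and 31.4%, and the median log2 fold change of the 10 genes was 0.52. Ssr4, a subunit of the translocon-associated complex, rose by 1.73 (adjusted p = 1.19e-05).

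Of 14 targets of ATF4 and CHOP tested, 3 were higher and 5 lower by the adjusted p, against 33.7% and 31.4% of all probes. Nupr1, a stress-induced chromatin protein, rose 2.14-fold (adjusted p = 0.000107), although its log2 fold change was under 2-fold with normexp (0.58) and after the 75th percentile shift (0.92), whereas Ddit4, an inhibitor of mTORC1 signalling, fell by 1.84 on the log2 scale (adjusted p = 7.8e-06). Atf3, a stress-induced repressor, was at -0.28 (adjusted p = 0.0440), a call that 10 of 20 alternatives did not keep. Ppp1r15a, which encodes GADD34, the phosphatase subunit that restores translation, was at -0.71 (SE 0.26, adjusted p = 0.0655), and Chac1 has no probe named here. Gdf15, a secreted stress cytokine and the other gene that was at least 2-fold lower, was chosen after its value was seen and fell by 1.76 on the log2 scale (adjusted p = 0.000274).

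Of 19 genes of amino acid synthesis, uptake and tRNA charging, 9 were higher and 5 lower by the adjusted p. The shares over all probes were 33.7% and 31.4%. Pycr1, a mitochondrial enzyme of proline synthesis, rose by 1.85 (adjusted p = 3.19e-05). Of 6 genes of translation and folding control, Tmbim6, an ER membrane protein that limits cell death, rose by 1.41 (adjusted p = 0.00119), but by 0.90 with normexp (adjusted p = 0.0392), and missed in the paired form of the methods' t-test (adjusted p = 0.0606). In the cytosolic heat shock list, a contrast outside the ER, 0 of 11 tested genes passed the 2-fold rule, against 29.0% of all probes. By the adjusted p 4 of its genes were higher and 3 lower, against 33.7% and 31.4%. There Hsp90aa1 was at -0.27 (adjusted p = 0.00957, or 0.128 after the 75th percentile shift) and Hspa8 at 0.14 (adjusted p = 0.0585), and Hspa1a has no probe named here.

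**Figure D3:**
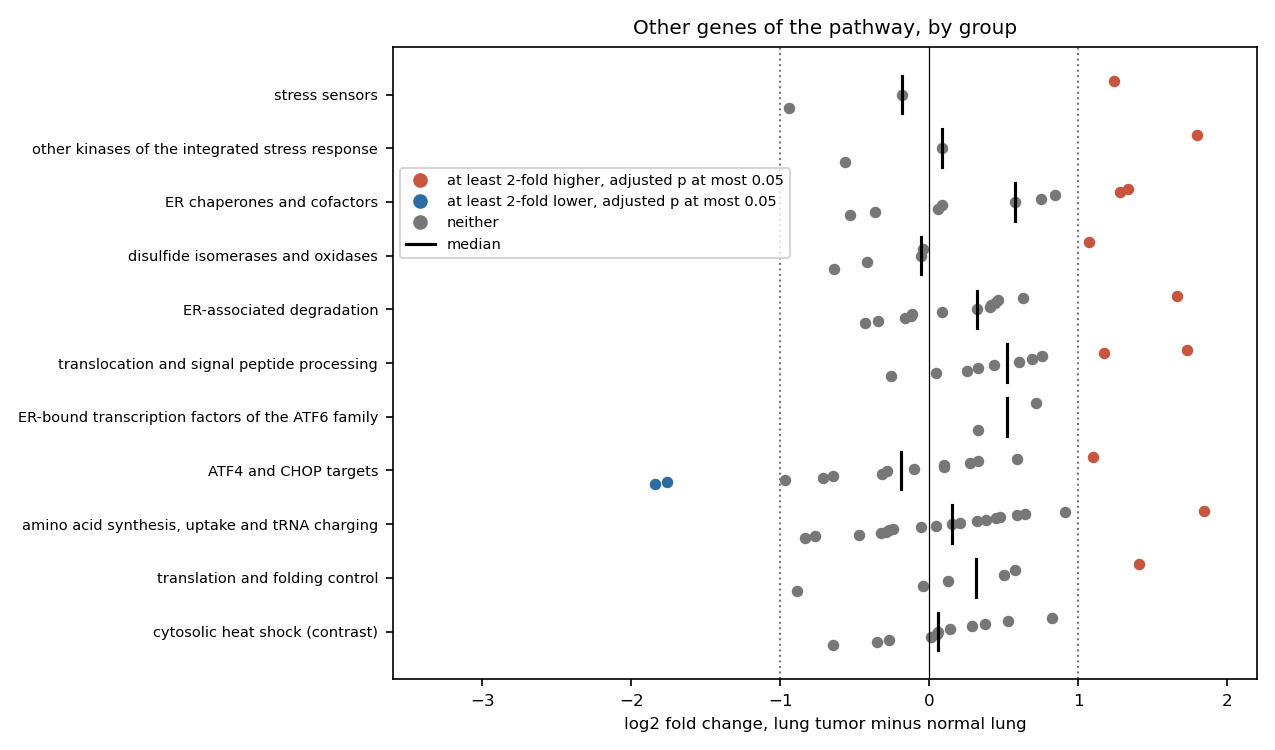
Each point is the log2 fold change of lung tumor over normal lung (horizontal axis) of 1 gene of the wider pathway, in rows by role, with red (higher) and blue (lower) for genes past the 2-fold rule, dotted lines at 2-fold and a bar at the median of the row. Translocation genes lie mostly to the right of 0, with a median of 0.52, and Ddit4 and Gdf15 are the points furthest to the left.

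Markers of several cell types moved in the same comparison. Over all probes tested, 13.5% passed the 2-fold rule higher in tumor and 15.5% lower. By the adjusted p alone 33.7% were higher and 31.4% lower. Of the 6 B cell and plasma cell markers tested, 5 were at least 2-fold higher in tumor, with Mzb1, an ER protein of these cells, at 2.83 (adjusted p = 6.47e-06). Of these 5, Cd79b was well above background on 0 normal arrays and so passed the filter through the tumors. The marker of this list that went the other way, Prdm1, was at -0.67 (adjusted p = 0.00257, limma). The summed signal of this list, normalized over 8 arrays, was 3253 to 3607 on the normal arrays and 9951 to 11433 on the tumor arrays. In the type 1 alveolar list, 5 of 6 genes fell by the adjusted p, 4 of them by 2-fold or more (Ager was at -1.37), and Rtkn2 was well above background on the tumor arrays alone. The sum of this list was 934919 to 959086 in normal lung and 180968 to 190999 in tumor. Of 7 type 2 alveolar markers, 5 rose and 2 fell by the adjusted p, with Sftpc at 1.14 (adjusted p = 0.000258) the 1 past 2-fold and Sftpb at -0.30 (adjusted p = 0.0133) and Sftpa1 at -0.26 (adjusted p = 0.0180) lower, and the sum was 946456 to 993880 in normal lung and 1114620 to 1137530 in tumor. Endothelial markers, with Pecam1 at -1.88, fell by 2-fold or more in 3 of 3, and their sum was 157855 to 168122 in normal lung and 19307 to 19428 in tumor. Of the proliferation markers 2 of 2 rose by 2-fold or more, Cdk1 by 2.52, from a sum of 1801 to 1903 to one of 6912 to 11818. The 2-fold rule was also passed, always lower in tumor, by 7 of 7 hepatocyte, 5 of 6 red blood cell, 3 of 4 platelet and 2 of 3 neutrophil markers, and, higher, by 1 of 3 club and airway markers. Among these, Ppbp and Gp9 of the platelet list and Apoa2 of the hepatocyte list were well above background on 0 tumor arrays and passed the filter through normal lung. The remaining platelet marker, Pf4, rose by 0.98 (adjusted p = 0.000203), and the platelet sum was 2640 to 2802 in normal lung and 3937 to 4594 in tumor. The 2-fold rule was passed by 0 of 4 macrophage markers (Cd68 at 0.75, adjusted p = 0.149) and 0 of 6 T cell markers (limma). The values of Sftpc, Pecam1 and Pf4 came from the fit with outlier-marked spots kept. The part of these cell types in the values of the pathway genes was not tested.

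The second comparison set the blood of 1 NNK-treated rat against that of 1 control rat. Hspa5 was 4.29-fold and Herpud1 4.57-fold higher in NNK blood, Asns was 2.40-fold lower, and the other 7 members differed by less than 2-fold. That is 3 of 10 members, against 42.2% of the 14452 probes compared, of which 23.1% were higher and 19.1% lower. With 1 array per group the difference has no replicate check, and no test was made. Over 3157 probes printed in several spots, the ratio of observed to expected squared difference between the blood arrays was 1.41. The expected value is from the noise between the spots of a probe, and each member had only 1 spot.

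Before normalization the intensity of Hspa5 was 830 in control and 4720 in NNK blood, and its normalized log2 signal in NNK blood was 12.10, higher by 2.10. Herpud1 went from 8.52 to 10.72, and from 271 to 1968 before normalization. No other member reached 2-fold higher. Of the 4 members with an ERSE or ERSE-II match, Hspa5 and Herpud1 were thus higher and Hsp90b1 and Xbp1 were not. A part of these elements in the difference was not tested. Under the 8 alternatives run, the log2 difference of Hspa5 was between 1.40 and 2.10 and that of Herpud1 between 1.75 and 2.19.

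Hsp90b1, which carries 2 ERSE matches, did not share that difference, with log2 signals of 16.20 and 16.08. Xbp1, which also has an ERSE, was at 6.58 and 6.96, and Pdia4 at 7.93 and 7.62. Dnajb9 was at 14.61 and 14.50. The difference of Xbp1, 1.30-fold, was the largest of these 4.

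Of the ATF4 branch, Atf4 was at 13.67 in control and 13.92 in NNK blood, Ddit3 at 10.37 and 10.46, and Trib3 at 5.79 and 5.32. Asns was at 14.17 and 12.91, its control spot being marked as an outlier. Its log2 difference of -1.27 was -0.82 in the authors' values and -2.27 after the 75th percentile shift, which also put Hsp90b1 and Dnajb9 beyond 2-fold lower, at -1.12 each, and turned Ddit3 to -0.49 and Atf4 to -0.76. That shift acts on the unequal 75th percentiles of the blood arrays given above.

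**Figure D4:**
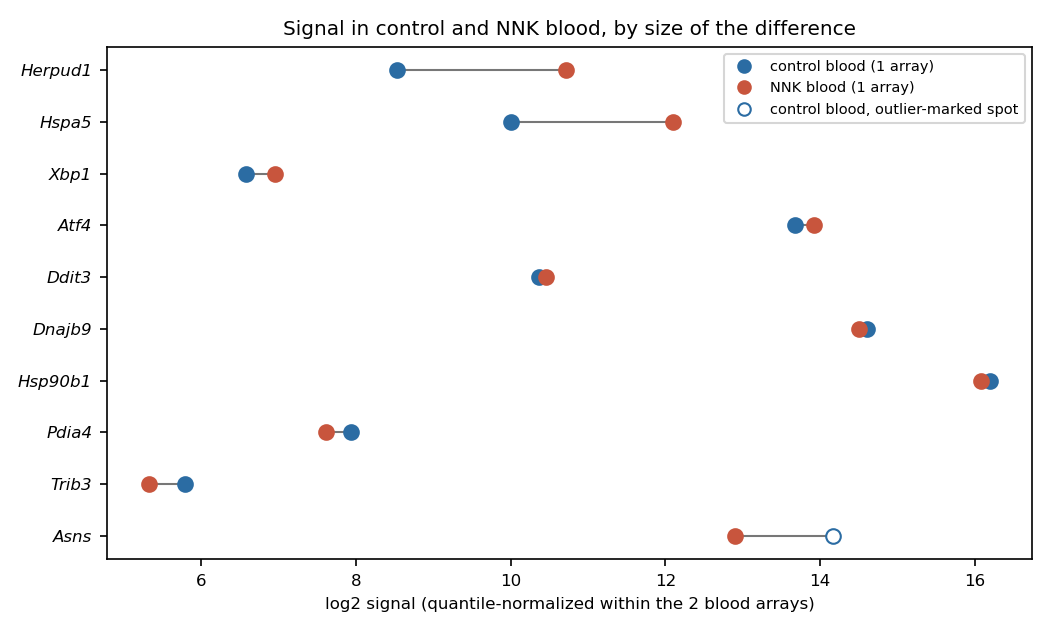
The horizontal axis is the log2 signal of each gene on the control blood array and the NNK blood array, joined by a line, with genes in the order of the difference; only the 2 points of a row can be compared. The lines of Herpud1 and Hspa5 are the longest, at 2.19 and 2.10, and that of Asns, with an open circle for its marked spot, runs the other way.

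In the wider list, 24 of 77 genes compared were higher and 8 lower in NNK blood by 2-fold or more, against 23.1% and 19.1% of all probes, with a median log2 difference of 0.23 against -0.11 over all probes. Eif2ak3 was at 5.97 and 7.58, and Ddit4, lower in the tumors, at 7.95 and 10.34. The BiP co-chaperone Dnajc3 was the reverse of Hspa5, at 9.33 in control and 6.84 in NNK blood, and Hyou1 was at 6.41 and 6.80. Ppp1r15a was 1.31 higher on the log2 scale. In the same pair of samples, normalized over 8 arrays, the summed neutrophil marker signal, over 3 probes among them S100a8, was 58249 in control and 150084 in NNK blood, and the platelet sum, over 4 probes with Pf4, 259840 and 177319. The red blood cell sum was 1580590 and 1550460. Their part in these differences was not tested.

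The level of each gene was last followed over all 8 arrays, normalized together. On this scale Asns was 5.02 and Dnajb9 1.59 log2 units higher in control blood than the mean of normal lung, with NNK blood at 4.19 and 1.51. Ddit3 was 1.17 and 1.25 higher in control and NNK blood and Hsp90b1 0.75 and 0.69 higher. On this scale blood was above all 6 lung arrays for these 4 genes. Before normalization Ddit3 was at 1095 in control and 1685 in NNK blood, against 8085 to 9602 in normal lung. Hsp90b1 was at 73332 and 72706, against 100295 to 113853, and Dnajb9 at 24069 and 23911, against 40657 to 42759. The direction of Ddit3, Hsp90b1 and Dnajb9 thus rests on the normalization. Asns was higher in blood before it too, at 18017 and 8045, against 3210 to 4076.

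On the same scale the other 6 members were lower in blood than on any lung array. Xbp1 was furthest down, at -4.88 in control and -4.21 in NNK blood, followed in control blood by Herpud1 at -3.78, Hspa5 at -3.42, Trib3 at -2.97, Pdia4 at -2.90 and Atf4 at -0.74. In NNK blood Herpud1 was at -1.80 and Hspa5 at -1.88, so that they lay nearer to lung, while Trib3 at -3.78 and Pdia4 at -3.36 lay further from it. Before normalization Trib3 was at 35.7 in control and 63.9 in NNK blood, and Pdia4 at 172 and 284, so their direction rests on the normalization. Tissue, slide and scan day cannot be told apart in the differences between blood and lung.

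**Figure D5:**
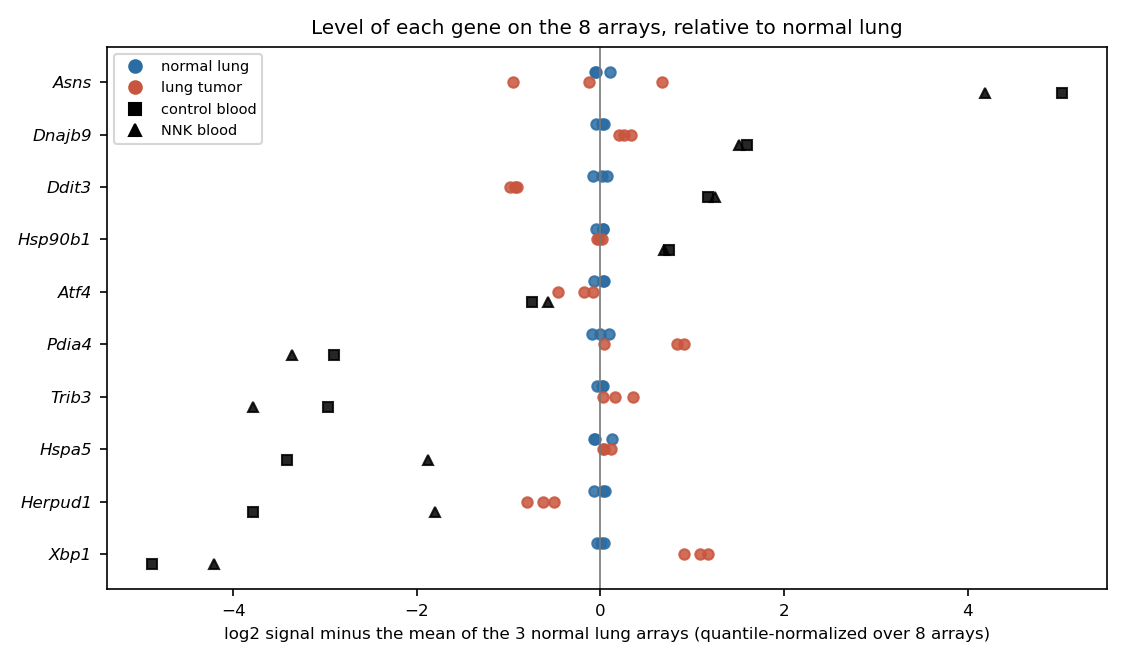
For each gene, the horizontal axis gives the log2 signal of every array minus the mean of the 3 normal lung arrays, after quantile normalization over 8 arrays, in circles for normal lung and lung tumor, squares for control blood and triangles for NNK blood. Asns, Dnajb9, Ddit3 and Hsp90b1 lie to the right in blood and the other 6 genes to the left, and the lung tumor arrays of Xbp1 and Ddit3 are also set apart from normal lung, on opposite sides of 0.

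Over the 8 arrays, the genes whose signal followed that of Hspa5 most closely among 6907 candidates were Ints11, Ppp2r5a and Klhl22, each with a Pearson r of 0.999. The arrays share tissue, slide and near-identical samples, and r is given only as a description. Ints11 was at 11.42 to 11.69 on the lung arrays, 5.92 in control blood and 8.41 in NNK blood.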

How the data were processed

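RNA from 3 normal lung, 3 lung tumor and 2 blood samples was hybridised to the Arraystar rat lncRNA array, which also carries mRNA probes. For each array the authors deposited the intensity of every spot from Agilent Feature Extraction 10.5.1.1, whose processed signal is background-subtracted and not normalized between arrays. They also deposited log2 values, quantile-normalized in GeneSpring over all 8 arrays. The design files name the build rn4, whose coordinates were not used. Probes were named by RefSeq accession through the assembly GRCr8 (14274 of 15323 mRNA probes, 93.2%), and promoters came from RefSeq in that build.

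The analysis used R 4.3.3 and limma 3.58.1. Signals were put on the log2 scale, lung (6 arrays) and blood (2 arrays) were quantile-normalized separately, spots marked as outliers were dropped, and replicate spots were averaged by probe. To be kept, a probe had to be well above background on at least 3 of 6 lung arrays (1 of 2 in blood) and have 2 values per group. This left 12471 of 15803 probes in lung. A gene lost to outlier marks (Pdia4 and Asns among the members) was taken from the fit with marked spots kept, over 15803 probes. The tumor arrays were set against the normal ones by lmFit and eBayes, two-sided, with Benjamini-Hochberg adjustment over all probes tested. A gene with several probes was represented by the brightest in lung.

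The methods call the normal tissues matched to the tumors, and the numbers in the sample titles were taken as pairs. Deviations of same-numbered arrays from their group means correlated at 0.164, -0.013 and 0.156 over 15803 probes. With arrays of other numbers the correlations were -0.139 to -0.126, -0.023 to 0.023 and -0.180 to 0.134, in the same order. The alternatives tried were quantile normalization over 8 arrays, a shift by the 75th percentile, normexp with an offset of 50 (on median signals, since no mean signal was found in the files), a floor of 5, other filters, marked spots kept, the authors' values, the methods' t-test and its paired form, the unadjusted p, replicate and slide blocks, near-identical arrays counted as 1, and each array left out. The genes named are the members, the called gene with the largest rise and fall of each list, the sensors and a few fixed genes, and the first or leading gene of each marker list. Members and lists were chosen with earlier results of these data known. The steps were tested on simulated data. The number of arrays limits the precision.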

Additional observations from a re-analysis of the deposited data

How the results depend on the processing

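For the members in lung, 173 of 200 values under the alternatives kept their direction and their side of the threshold of adjusted p. The count of members past the 2-fold rule was 0 in each direction, but 1 higher (Xbp1) with quantile normalization over 8 arrays and in the authors' values, and 1 lower (Ddit3) after the 75th percentile shift. Leaving out each array in turn gave 0 higher and 0 to 1 lower, the 1 being without normal replicate 3. For the pathway list, leaving out each array gave 10 to 11 higher and 2 to 3 lower, the 75th percentile shift 4 lower, and near-identical arrays counted as 1 sample 5 higher and 1 lower. The last leaves 3 samples, and the cause of its loss of calls was not tested. For the same list normexp gave 8 higher and 2 lower, and the paired form of the methods' t-test 9 higher and 2 lower. The slide block gave 12 higher and 3 lower. In blood the count of lower members was 3 after the 75th percentile shift and 0 with quantile normalization over 8 arrays and in the authors' values.

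Signs turned only where the fold change was small or the spread wide. Hspa5 was at -0.026 with normexp. Hsp90b1 was at 0.014 after the 75th percentile shift, 0.026 in the authors' values and 0.018 with the slide block, and between -0.033 and 0.0031 with each array left out. Asns was at 0.71 with the slide block, 0.055 with near-identical arrays counted as 1 sample and between -0.61 and 0.29 with each array left out. Hyou1 was at -0.13 after the 75th percentile shift and -0.050 with the slide block. The cause was not tested.

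The replicate block takes same-numbered tumor and normal arrays as pairs, although the 3 normal arrays were near-identical. With it the members past the 2-fold rule were 0 higher and 0 lower and the pathway genes 11 higher and 2 lower. By the adjusted p alone it took the calls of Dnajb9 (0.062), Herpud1 (0.0582), Eif2ak3 (0.0926) and Atf3 (0.156), and of no other member or named pathway gene. Pdia4 passed with normexp (0.44, adjusted p = 0.0434).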

Other observations

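Genes other than the members whose promoter window holds an ERSE or an ERSE-II, a set chosen by sequence after the data were seen, numbered 34. They include Calr, Canx, Creld2, Derl3, Dnajb11, Dnajc3 and Hyou1, which encode ER folding and degradation factors. Of the 20 tested in lung, 3 (Calr, Derl3 and Ggct) were at least 2-fold higher and 2 (Ppm1l and Prkcz) at least 2-fold lower in tumor with an adjusted p of at most 0.05 (limma), against 29.0% of all probes, and their median log2 fold change was 0.07, as over all probes. Dnajb11, a BiP co-chaperone, rose by 0.84 (adjusted p = 0.000562) and Creld2, a stress-inducible ER protein, by 0.75 (adjusted p = 0.000236), while Canx, the membrane-bound relative of calreticulin, was at 0.08 (adjusted p = 0.527).

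Of the 15 compared in blood, 2 (Calhm6 and Hnrnpa3) were at least 2-fold higher and 2 (Dnajc3 and Cdc45) at least 2-fold lower in NNK blood, against 23.1% and 19.1% of all probes, with a median log2 difference of -0.12 against -0.11 over all probes. Of the members with a match, Hspa5 and Herpud1 differed by 2.10 and 2.19, Xbp1 by 0.38 and Hsp90b1 by -0.12. No test was made, with 1 array per group.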
